A study of Mus musculus with 12 samples.

Results

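The 7 circRNAs described here come from host genes that are known mainly from the brain, and they were measured in the whole blood of mice after middle cerebral artery occlusion (MCAO). They are 7 of the 14236 circRNA probes on the array, and their host genes are Tenm4, Kirrel3, Dab1, Nbea, Akap6, Ccser1 and Tmem178b. The members were chosen by measured values. Each of the 7 had been listed by the study as changed against sham on these same arrays, at an adjusted p of at most 0.05 and by at least 2 log2 units in at least 1 comparison. Tenm4 was listed at 24 h, Nbea and Akap6 at 5 min, and the other 4 at both 3 h and 24 h. Every difference between groups below is therefore a description of these arrays. A call says only that a value passed the threshold of the model fitted over all probes, and for these members it tests nothing independent of their choice.

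The series comprised 12 arrays of 1 colour (Cy3) and the Arraystar Mouse v2 design, with 3 male Balb/c mice in each of 4 groups. Besides sham, the groups had MCAO of 5 min, of 3 h or of 24 h, in which a silicon-coated nylon filament closed the artery that supplies much of one cerebral hemisphere. Sham mice had the same operation with an occlusion of 0 min, and all mice were anesthetized with isoflurane. The labels give an age of 8 weeks, and the methods give another age. Whole blood was taken by cardiac puncture, and linear RNA was digested with RNase R before labeling, so that a probe reads the circular transcript. The design asks which blood circRNAs differ from sham at each duration of ischemia.

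A circRNA is a closed RNA loop formed when the end of an exon, or of an intron, is joined back to an upstream position of the same transcript. The loop has no free ends, which protects it from exonucleases and gives it a long life in cells and body fluids. Circular transcripts are especially abundant in brain, where many come from genes for synapses and neuronal adhesion, and blood cells carry circRNAs of their own. The name of the host gene does not tell which cell released a circRNA into blood, and in whole blood fewer cells of a type and less RNA per cell cannot be told apart. Only the circRNA probes of the array were analyzed here, so the tissue was not checked against linear mRNAs of blood cell markers.

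By the scan time in their headers the arrays fell into 2 sets, called slides here, and this touches every value at 24 h. The labels name no slide. Slide 1 held the sham and 5 min groups and replicates 1 and 2 of 3 h, while slide 2 held replicate 3 of 3 h and the 24 h group. The median raw intensity of the negative control spots was 25 to 27 on slide 1 and 83.5 to 101 on slide 2. The 5 min arrays had the dimmest circRNA spots, with medians of 50 to 69 against 83 to 113 in sham. By the scanner's own flag, 70.9% to 90.2% of circRNA spots per array were well above background, and replicates of a group correlated at 0.84 to 0.99 over the tested probes.

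All 7 circRNAs were measurable in the blood of sham mice, but near the floor for some. Normalized intensities are on a log2 scale, where 1 unit is a doubling, and the detection limit of an array was 1.1 times the 95th percentile of its negative controls. All 7 passed that limit on all 12 arrays, as did 10678 of the 14236 circRNA probes. The study had itself kept only probes brighter than its control probes on all 12 arrays before listing changes. That all 7 passed a similar limit was therefore largely set by how they were chosen. The scanner's own call of well above background was met on all 12 arrays by every member except Tenm4, which missed it in sham replicate 3. In sham, Tenm4 lay 0.30 to 0.81 log2 units above the limit, Dab1 1.47 to 2.01, Kirrel3 2.17 to 2.40 and Tmem178b 3.03 to 3.39. Nbea lay 4.63 to 5.07 above it, Akap6 6.17 to 7.78 and Ccser1 8.52 to 8.71. The brightness of different probes is not a measure of which circRNA was more abundant, because each probe binds its target with its own strength.

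**Figure D1:**
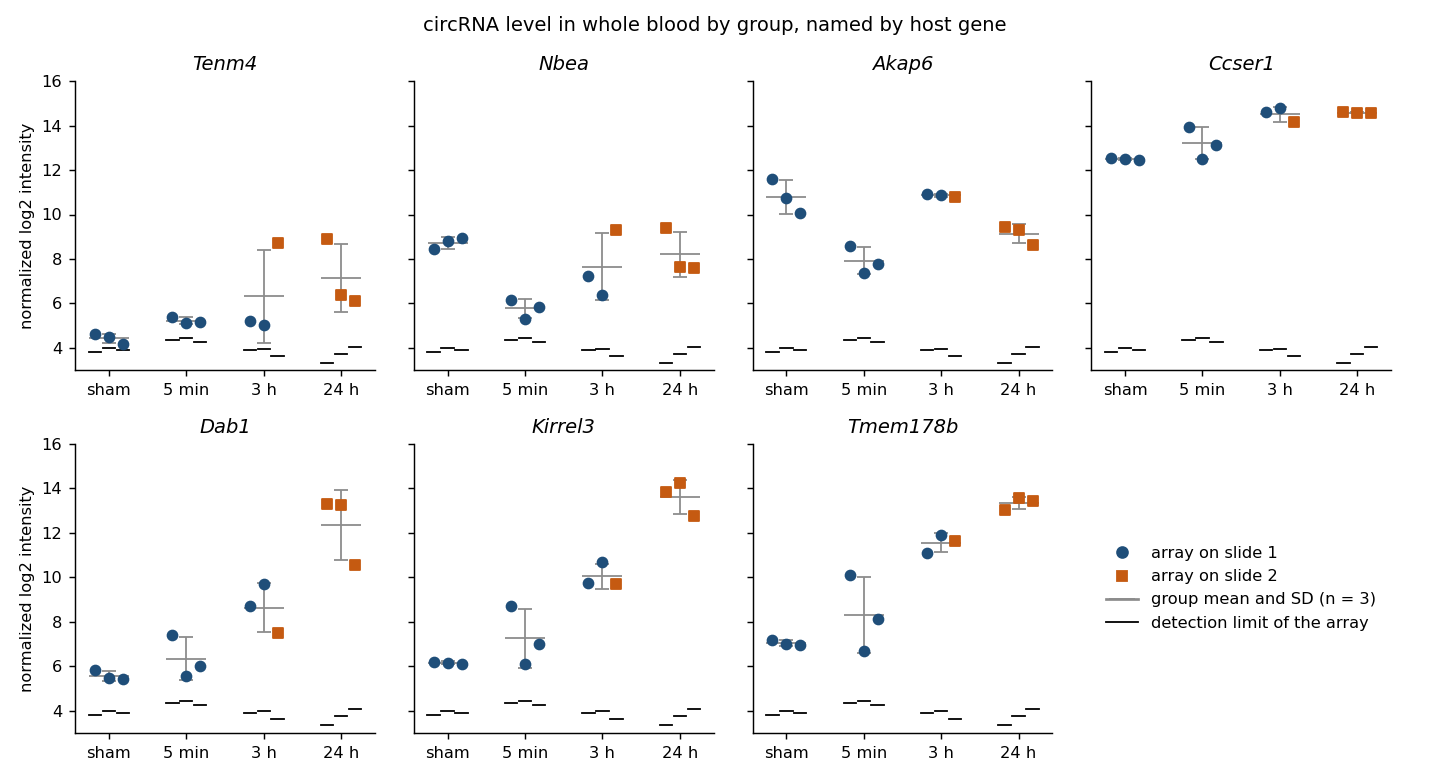
Normalized log2 intensity (y axis) of the circRNA of each host gene on the 12 arrays, by group (x axis), with circles for slide 1, squares for slide 2, grey bars for the group mean and SD (n = 3) and short black lines for the detection limit of each array. Kirrel3, Dab1, Tmem178b, Tenm4 and Ccser1 had their lowest means in sham and their highest at 24 h, with Ccser1 close to level from 3 h to 24 h. Nbea and Akap6 were lowest at 5 min, and Tenm4 and Nbea were split by slide within the 3 h group.

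Against sham, the members did not move as one group. At 5 min, 2 of the 7 were called by limma (Benjamini-Hochberg adjusted p of at most 0.05 over all tested probes), both of them lower, while 5.26% of all tested probes were called and 3.55% were called lower. At 3 h, 4 of the 7 were called, all higher, with 4.24% of all probes called and 3.43% called higher. At 24 h, 6 of the 7 were called, 5 higher and 1 lower, with 31.8% of all probes called, 14.1% higher and 17.7% lower. Because the members were listed for these contrasts, nothing is read from their shares. The median log2 fold change of the 7 was 0.76, 2.02 and 2.71 at the successive durations, beside medians over all tested probes of 0.10, -0.12 and -0.18.

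Kirrel3 and Tenm4 encode proteins of the cell surface. Kirrel3 is an immunoglobulin-type adhesion molecule that takes part in forming synapses and sorting axons, and Tenm4 is a teneurin, a large adhesion protein that links neurons to their partners and is also needed for myelination.

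The Kirrel3 circRNA (mmu_circRNA_43956, probe ASCRP4007574, gene ID 67703) is annotated as intronic and spans chr9:34536915-34538449 on the plus strand of mm10, inside the RefSeq gene. Replicates 1 to 3 had raw intensities of 80, 93 and 98 in the sham group, of 160, 61 and 83 after 5 min, of 1239, 2000.5 and 1187.5 after 3 h, and of 24224, 21940 and 6853 after 24 h. The normalized level was 6.15 ± 0.06 in sham, 7.25 ± 1.33 at 5 min, 10.03 ± 0.57 at 3 h and 13.61 ± 0.75 at 24 h (mean ± SD, log2, n = 3). The 5 min arrays straddled the sham values, all 3 h arrays lay above both, and all 24 h arrays lay above all 3 h arrays. The difference from sham was 1.11 at 5 min, which was not called, and the level rose by 3.89 at 3 h and by 7.46 at 24 h, or 176-fold (SE 0.57 log2 units each).

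The Tenm4 circRNA (mmu_circRNA_000704, probe ASCRP4003843, gene ID 23966) is exonic and spans chr7:96729348-96737561 on the plus strand. Raw intensities were 37, 37 and 32 in the sham group, then 37.5, 38.5 and 39 after 5 min, 57.5, 49 and 691.5 after 3 h, and 833, 161.5 and 155 after 24 h. The 8 arrays of slide 1 were all below 58, and the 4 arrays of slide 2 were all at 155 or more. The negative controls were brighter on slide 2 as well. Divided by the median negative control of its array, Tenm4 was at 1.28 to 1.48 in sham. On slide 2 it was at 8.28 in 3 h replicate 3 and at 9.36, 1.60 and 1.58 in replicates 1 to 3 of 24 h. The normalized level was 4.43 ± 0.22 in sham, 5.22 ± 0.15 at 5 min, 6.32 ± 2.08 at 3 h and 7.14 ± 1.55 at 24 h. The value at 24 h was called, at 2.71 above sham (SE 0.85), and those of 0.79 at 5 min and 1.90 at 3 h were not. The 5 min arrays lay 0.51 or more above all sham arrays on the same slide, and with slide 1 fitted alone the 5 min value was called (SE 0.16), where 3 of the 7 members and 2036 of the 10678 probes were. Measured from the detection limit of each array, the groups overlapped, at 0.69 to 1.04 log2 units at 5 min and 0.30 to 0.81 in sham. Both lay near the floor. With slide as a term in the model the 24 h value was -0.89 (SE 1.01), the opposite direction, so that for Tenm4 the slide and the 24 h group cannot be told apart. Leaving out any 1 sham array or replicate 1 of 24 h ended the call as well, and without that replicate the difference was 1.82.

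Dab1, Nbea and Akap6 encode proteins that organize signals inside the cell. Dab1 is the adaptor that passes the Reelin signal to migrating neurons, Nbea (neurobeachin) is a scaffold for the traffic of receptors and vesicles to synapses, and Akap6 anchors protein kinase A at the nuclear envelope of neurons and heart muscle cells.

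The Dab1 circRNA (mmu_circRNA_37286, probe ASCRP4009203, gene ID 13131) is intronic and spans chr4:103754180-103764967 on the plus strand. Raw intensities were 63.5, 60 and 62 in the sham group, then 81.5, 51 and 57 after 5 min, 609, 952 and 356 after 3 h, and 18310, 10754.5 and 1454 after 24 h. In order of time, the 4 groups had normalized levels of 5.57 ± 0.22, 6.33 ± 0.97, 8.64 ± 1.09 and 12.36 ± 1.57. All 3 h arrays lay above sham and 5 min, all 24 h arrays lay above 3 h, and 24 h replicate 3, at 10.54, stood below replicates 1 and 2, at 13.30 and 13.23. Dab1 was 0.76 above sham at 5 min without a call, and it rose by 3.07 at 3 h and by 6.79 at 24 h, or 111-fold (SE 0.73). The call at 3 h was lost when any 1 sham array was left out and under 5 further alternatives, with differences from 2.23 to 3.63 over all alternatives. At 24 h the differences ran from 5.77 to 8.47.

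The Dab1 circRNA starts 135 kb after the more upstream of the 2 RefSeq start sites of the gene, and the other site lies downstream of the circle. The promoter of the upstream site (RefSeq, GRCm38.p6, chr4:103619250-103619549, plus strand) is shown because it is the only one of the 9 promoter entries of these host genes that holds CAGCACC, the left arm of RE1, the element bound by the neuronal gene repressor REST. Capitals mark the match, which lies on the opposite strand as GGTGCTG.
Dab1 promoter: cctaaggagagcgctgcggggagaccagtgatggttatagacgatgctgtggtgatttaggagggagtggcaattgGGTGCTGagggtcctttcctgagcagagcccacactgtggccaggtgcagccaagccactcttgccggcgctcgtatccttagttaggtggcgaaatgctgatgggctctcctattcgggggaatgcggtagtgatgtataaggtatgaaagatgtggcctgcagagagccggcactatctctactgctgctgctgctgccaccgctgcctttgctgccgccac
CAGCACC occurred on either strand in 7.14% of all 32851 promoter entries of 300 bases. The right arm, GGACAG, occurred in 22.2% of entries and in those of Ccser1 and Nbea. A match is a description of the letters, and Kirrel3 has no entry.

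A shorter Dab1 circRNA shared the first base of the longer one (mmu_circRNA_37285, intronic, probe ASCRP4012545, chr4:103754180-103755895). It is named because the study listed it as changed too. Its normalized level was 8.16 ± 0.09 in sham, 8.90 ± 1.00 at 5 min, 10.75 ± 0.99 at 3 h and 10.81 ± 0.51 at 24 h. It rose by 2.60 at 3 h and by 2.65 at 24 h (SE 0.54). Between 3 h and 24 h the means of the shorter circRNA were thus 0.05 apart and those of the longer one 3.72. These 3 h means mix the 2 slides. The shorter circRNA was at 11.11 and 11.52 on slide 1 and at 9.63 on slide 2 in the 3 h group. Its 24 h arrays, all on slide 2, were at 11.3, 10.9 and 10.2, above that 3 h array.

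The Nbea circRNA (mmu_circRNA_001579, probe ASCRP4014137, gene ID 26422) is exonic and spans chr3:56079858-56091120 on the minus strand. Raw intensities were 294.5, 538 and 720 in the sham group, then 51, 45 and 51 after 5 min, 221, 105.5 and 942 after 3 h, and 1112, 258 and 259 after 24 h. All 5 min arrays lay below all others. Normalized, it was 8.73 ± 0.27 in sham, 5.78 ± 0.42 at 5 min, 7.64 ± 1.51 at 3 h and 8.21 ± 1.01 at 24 h. Nbea fell by 2.95 at 5 min (SE 0.64), a level 7.75-fold lower, and its values of -1.09 at 3 h and -0.52 at 24 h were not called. Sham and 5 min lay on the same slide, and the slide term left the 5 min difference at -2.95. Leaving out sham replicate 2 or 3, or any 1 of the 5 min arrays, ended the call, with differences from -3.15 to -2.73 over the 12 arrays left out. Over all alternatives the difference ran from -3.19 to -2.17, and it was smallest with an offset of 50 in the background correction. The 5 min arrays lay only 0.88 to 1.81 log2 units above the detection limit, so the size of this fall depends on how background is handled.

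A second Nbea circRNA ran another course (mmu_circRNA_35381, exonic, probe ASCRP4012899, chr3:55786440-56009643, also listed by the study as changed). Its level was 9.64 ± 0.98 in sham, 10.57 ± 0.84 at 5 min, 9.38 ± 2.12 at 3 h and 6.97 ± 0.17 at 24 h. It was called only at 24 h, where it fell by 2.67 (SE 0.83), while its value at 5 min was 0.93 above sham and not called. Within the 3 h group its arrays were at 10.08 and 11.05 on slide 1 and at 7.00 on slide 2, so the 2 Nbea circRNAs were split by slide in opposite directions. The 24 h arrays of this second circRNA, all on slide 2, were at 7.16, 6.89 and 6.86. For its fall at 24 h, the slide and the 24 h group cannot be told apart.

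The Akap6 circRNA (mmu_circRNA_001149, probe ASCRP4011815, gene ID 238161) is exonic and spans chr12:52937134-52938506 on the plus strand. The sham mice had raw intensities of 2245, 1953 and 1450.5, which compare with 153, 120 and 137 after 5 min, 2963, 2227 and 2192 after 3 h, and 1165, 654 and 439.5 after 24 h. The normalized level was 10.80 ± 0.77 in sham, 7.91 ± 0.61 at 5 min, 10.86 ± 0.08 at 3 h and 9.13 ± 0.42 at 24 h. The 5 min arrays lay below all others, the 3 h arrays lay inside the range of sham, and the 24 h arrays lay between 5 min and sham without overlap. Akap6 fell by 2.89 at 5 min (SE 0.42), a level 7.40-fold lower. At 24 h it fell by 1.67, and at 3 h it was 0.06 above sham and not called. The 5 min call ended without sham replicate 2 or without 5 min replicate 3, with differences from -3.26 to -2.49 over the arrays left out. The 24 h value was -1.55 with the slide term and no longer called.

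Ccser1 and Tmem178b are less well understood. Ccser1 is a large gene for a coiled-coil serine-rich protein, and Tmem178b encodes a membrane protein whose function is little known.

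The Ccser1 circRNA (mmu_circRNA_001686, probe ASCRP4012408, gene ID 232035) is exonic and spans chr6:61310813-61313835 on the plus strand. The sham mice had raw intensities of 3735, 5848 and 7584, which compare with 4667.5, 2855.5 and 3507 after 5 min, 34464, 33507 and 20250 after 3 h, and 37060, 27264 and 27156 after 24 h. No spot was saturated. Group means ran from 12.49 ± 0.04 in sham over 13.19 ± 0.72 and 14.51 ± 0.34 to 14.58 ± 0.02 at 24 h. Sham and 5 min overlapped, and all 3 h and 24 h arrays lay above both and overlapped with each other. Ccser1 rose by 2.02 at 3 h and by 2.09 at 24 h (SE 0.33), about 4.07-fold and 4.25-fold, and its value of 0.70 at 5 min was not called.

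The Tmem178b circRNA (mmu_circRNA_40203, probe ASCRP4007558, gene ID 434008) is annotated as sense overlapping and spans chr6:40004144-40207533 on the plus strand, which is 53.0% of its host gene. The spans of the other 6 cover 0.251% to 2.02% of theirs. The sham mice had raw intensities of 139.5, 157 and 177, which compare with 384, 89.5 and 161 after 5 min, 3310, 4792.5 and 3755 after 3 h, and 15629, 14052 and 10946 after 24 h. The normalized level was 7.05 ± 0.13 in sham, 8.31 ± 1.71 at 5 min, 11.55 ± 0.42 at 3 h and 13.33 ± 0.27 at 24 h. The 5 min arrays lay on both sides of sham, the 3 h arrays lay above them all and the 24 h arrays above 3 h. Tmem178b rose by 4.49 at 3 h, or 22.5-fold, and by 6.28 at 24 h, or 77.7-fold (SE 0.62), and its value of 1.26 at 5 min was not called.

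A second RefSeq start site of Tmem178b lies inside the span of the circle, the only one among the 9 promoter entries of these host genes to do so, and its promoter (GRCm38.p6, chr6:40110003-40110302, plus strand) is shown for that reason. It holds neither arm of RE1, so nothing is in capitals.
Tmem178b inner promoter: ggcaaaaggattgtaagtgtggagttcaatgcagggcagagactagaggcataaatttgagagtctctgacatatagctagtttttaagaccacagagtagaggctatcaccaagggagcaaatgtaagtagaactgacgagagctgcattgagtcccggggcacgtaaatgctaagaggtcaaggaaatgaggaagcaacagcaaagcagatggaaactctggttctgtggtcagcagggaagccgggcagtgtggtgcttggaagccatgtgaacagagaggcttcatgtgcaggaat

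The spread at 5 min had the same order in every member. In all 7 circRNAs replicate 1 was the highest of the 5 min arrays, replicate 3 was next and replicate 2 was the lowest. The same order held in 34.5% of all tested probes, and another order, with replicate 2 highest and replicate 1 lowest, held in 42.0%. Replicate 1 was also the 5 min array with the lowest median raw intensity of circRNA spots, at 50, and the fewest spots well above background. The part of the array in the spread of the members was not tested.

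The 3 h group lay on both slides and shows how far each member differed between them. Replicate 3 on slide 2 minus the mean of replicates 1 and 2 on slide 1 was 3.60 for Tenm4 and 2.50 for Nbea, at the 99.3rd and 98.3rd percentile of all tested probes. For Dab1 the difference was -1.69, at the 1.98th percentile. The other members lay between -0.55 and 0.14, within the range from -1.34 to 1.29 that held the middle 90% of all probes, whose median was -0.16. These differences hold 1 mouse on slide 2, so that slide and mouse cannot be told apart in them.

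**Figure D2:**
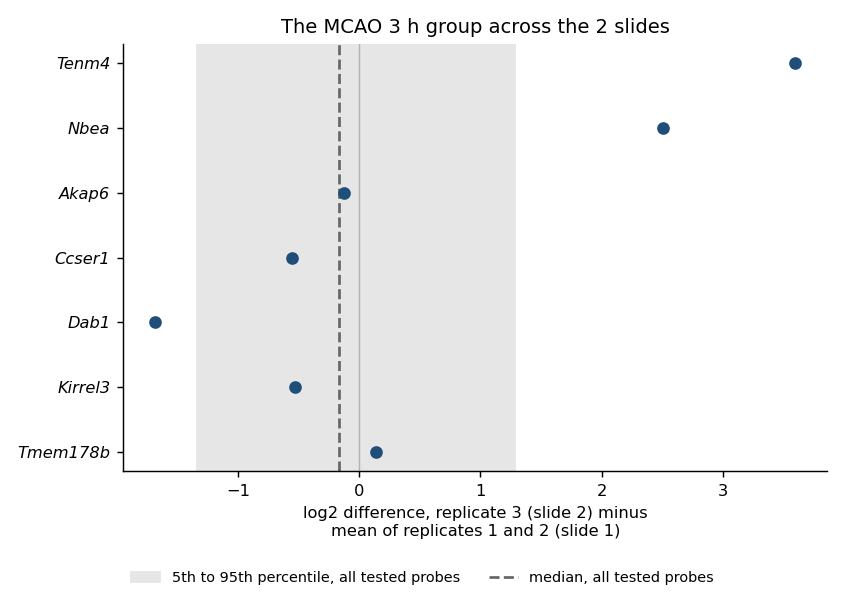
Log2 difference within the MCAO 3 h group (x axis), replicate 3 on slide 2 minus the mean of replicates 1 and 2 on slide 1, for the circRNA of each host gene (y axis), with the 5th to 95th percentile of all tested probes in grey and their median dashed. Tenm4 at 3.60 and Nbea at 2.50 lay above the grey range, Dab1 at -1.69 lay below it, and the other 4 lay inside.

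On slide 1 alone, 3 h minus sham was 4.45 for Tmem178b, 4.06 for Kirrel3, 3.63 for Dab1 and 2.21 for Ccser1. These are the 4 members called at 3 h in the full model, and they were called within the slide as well. Tenm4 at 0.70 and Nbea at -1.92 were called within the slide but not in the full model, and Akap6 was at 0.10. On slide 2 alone, 24 h minus the single 3 h array was 4.84 for Dab1, 3.93 for Kirrel3, 1.69 for Tmem178b and 0.43 for Ccser1. It was -1.10 for Nbea, -1.58 for Tenm4 and -1.64 for Akap6, and none of the 7 was called by limma on slide 2, where the estimate came from 4 arrays. At an unadjusted p under 0.05, 4 of the 7 and 3.3% of all probes passed there.

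With slide as a term, 24 h minus sham was 8.47 for Dab1 (SE 1.24), 7.99 for Kirrel3 (SE 1.06), 6.14 for Tmem178b (SE 1.17) and 2.64 for Ccser1 (SE 0.58), and all 4 were called. Nbea was at -3.02 (SE 0.83) and was not called. Since 24 h shared no slide with sham, this estimate of the slide rests on the 3 h group alone.

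**Figure D3:**
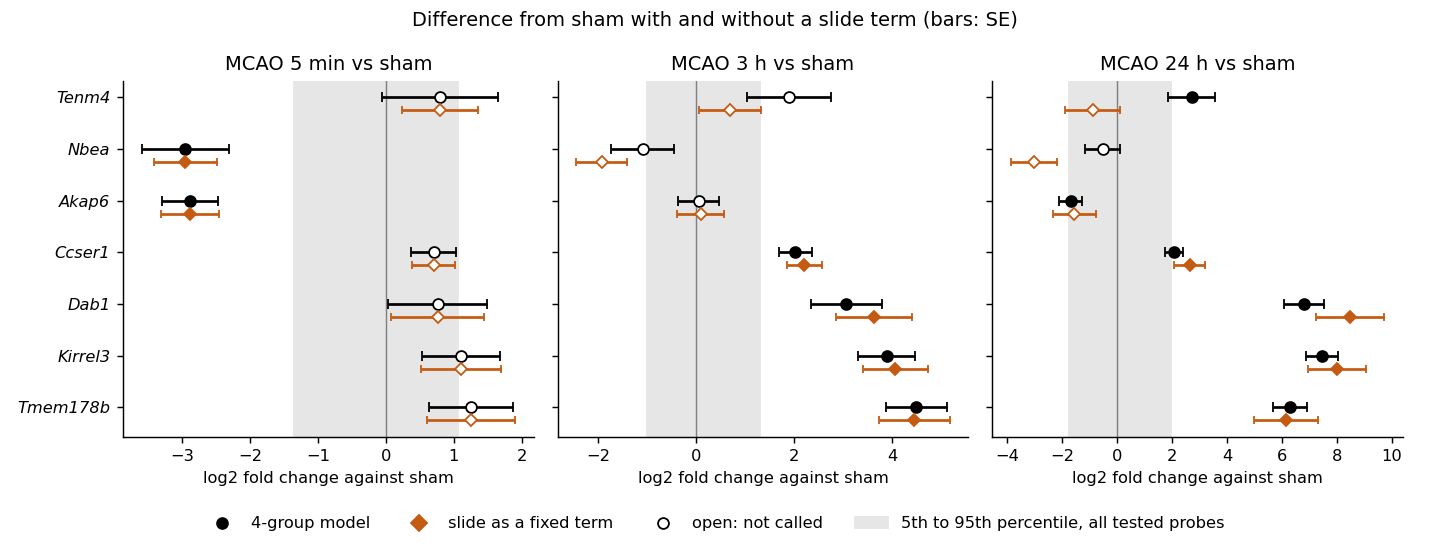
Log2 fold change against sham (x axis) for the circRNA of each host gene (y axis), 1 panel per duration of MCAO, with the 4-group model as circles and the model with a slide term as diamonds (bars are SE, filled symbols were called, and grey spans the 5th to 95th percentile of all tested probes). At 24 h Dab1, Kirrel3, Tmem178b and Ccser1 lay right of the grey range under both models, and Tenm4 moved from 2.71 to -0.89.

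The steps between durations of occlusion differed between members as well. From 5 min to 3 h, 3 of the 7 were called (2.08% of all probes were), with Tmem178b higher by 3.24, Akap6 by 2.94 and Kirrel3 by 2.78. From 3 h to 24 h, 3 of the 7 were called (4.65% of all probes), with Dab1 higher by 3.72, Kirrel3 higher by 3.57 and Akap6 lower by 1.73 on the log2 scale. Kirrel3 and Akap6 were thus called in both steps, Kirrel3 upward each time and Akap6 first upward and then downward. These steps share the 3 h arrays, and with the slide term none of the 3 calls from 3 h to 24 h held. The values themselves were then 4.84 for Dab1, 3.93 for Kirrel3 and -1.64 for Akap6, with wider SEs of 0.97, 0.83 and 0.61.

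For each member the tested probe with the most similar course over the 12 arrays was found by Pearson's r of the normalized log2 values. These points share 4 groups and 2 slides. The likest probe was that of a circRNA of Slc35d2 for Kirrel3 (r = 0.995), Aff2 for Tenm4 (0.994), Rasa3 for Tmem178b (0.994), Adgre1 for Dab1 (0.993), Tm9sf1 for Ccser1 (0.992) and Adcy5 for Akap6 (0.990). For Nbea it was a probe without a name here (0.968). Adgre1 encodes the macrophage surface protein F4/80 and Adcy5 an adenylyl cyclase of striatum and heart. The Adgre1 circRNA was at 5.90 ± 0.29 in sham and 9.24 ± 0.85 at 24 h, and the Tm9sf1 circRNA was 3.93 above sham at 3 h and 4.31 at 24 h, against 2.02 and 2.09 for Ccser1.

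Other host genes of the neuron were present among the circRNAs that carry a name. Only circRNAs that the study listed as changed have one here, 901 in all, so counts over them are not shares of what was measured. A list of 32 genes held neuronal and synaptic genes together with relatives of the 7 host genes, such as Akap9, Ccser2 and Nbeal1. Of these 32 genes, 12 had 14 named circRNAs, of which 6 were called higher at 3 h, and 11 were called higher and 2 lower at 24 h. Among all 901 named circRNAs, 31.5% were called higher at 3 h, and 54.1% were called higher and 39.1% lower at 24 h, a consequence of how the names were given. Rbfox1, a neuronal splicing factor, had 2 intronic circRNAs that rose by 3.03 (SE 0.44) and 3.26 (SE 0.42) at 24 h. That of Cacna1c, a calcium channel subunit of heart and brain, rose by 3.19 (SE 0.35), and that of Grin2b, an NMDA receptor subunit, rose by 2.05 (SE 0.61). The circRNAs of Akap9 and Ccser2, relatives of Akap6 and Ccser1, fell by 3.31 (SE 0.62) and 2.19 (SE 0.30). Of 7 erythroid, 11 leukocyte, 5 platelet and 5 glial marker genes, none had a named circRNA, and of 6 neuron marker genes only Grin2b had 1. The part of blood cell composition in the members' values was not tested.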

How the data were processed

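RNA of mouse whole blood was measured on 12 arrays, 3 per group, grouped by their labels. The authors deposited the scanner output of each array (Agilent Feature Extraction 11.0.1.1, per the labels), whose values are raw spot and local background intensities on a linear scale. The authors also deposited a table of log2 values of the same arrays, which served as an alternative. Raw medians were background-corrected by normexp (offset 0), quantile normalized over 15712 spots and brought to log2 in limma 3.58.1 (R 4.3.3, statmod 1.5.0). Control spots were then left out and outlier spots set to missing, none of them in a member. A probe was tested if it reached 1.1 times the 95th percentile of 77 negative control spots on all 12 arrays, which left 10678 (75.0%). One model over all 4 groups, with a mean-variance trend, gave moderated tests with Benjamini-Hochberg adjustment in each comparison and a threshold of 0.05 (8 residual and 5.05 prior degrees of freedom). SE is limma's moderated standard error. The number of arrays limits the precision, and 3 against 3 cannot give an exact p below 0.1.

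The array files hold probe numbers only. Names, types and mm10 places come from the study's list of 903 changed circRNAs, of which 901 matched 1 probe by mean and log2 fold change within 5e-04, so equality with that list is a condition of the naming. Other circRNAs of the 7 host genes could be named only where that list holds them. The likest circRNA of Akap6 was named by its place in RefSeq. Named were the 7 members, other listed circRNAs of their hosts, the likest probe of each, and called members of the neuronal host list. The members and lists were chosen with earlier results of these data known. Promoters are those of RefSeq (GRCm38.p6, 9 entries for 6 of the 7 genes), and no sequence of a probe or circRNA was used here. On simulated arrays, 106, 113 and 110 of 200 probes changed by 2 log2 units were recovered in the 3 comparisons with sham (in order of time) among 10566 tested, with 5, 5 and 6 false calls. The simulated noise was independent between probes and arrays and held no slide difference. These counts therefore do not cover errors that the probes of an array or slide share. Alternatives covered background correction, scaling, the deposited table, the probe filter, the samples fitted, empirical Bayes settings, array weights, slide, a replicate block, single arrays left out and, chosen after seeing the data, quantile normalization of log2 values.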

Additional observations from a re-analysis of the deposited data

Results flagged for a closer look

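Between neighbouring durations of occlusion, 6 steps passed the threshold of the model. The same arrays had served to choose the circRNAs, so these steps are a description and no test of a change. From 5 min to 3 h the difference was 2.94 for Akap6, 2.78 for Kirrel3 and 3.24 for Tmem178b (log2 units). From 3 h to 24 h it was -1.73 for Akap6, 3.72 for Dab1 and 3.57 for Kirrel3, where slide and time cannot be told apart beyond the single 3 h array on slide 2. Groups of 3 arrays were too small for a search for outlying arrays.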

How the results depend on the processing

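Ccser1, Kirrel3 and Tmem178b kept their calls at 3 h and 24 h under all alternatives run, 28 and 27, and Dab1 kept its call at 24 h under all 27. Of the called members, 1 changed direction: Tenm4 at 24 h was -0.89 with slide as a fixed term. Tenm4 did not pass the detection limit on all arrays without background subtraction, with an offset of 50 or with cyclic loess, which left 6 members. With array weights 7 members were called at 5 min and 6 and 5 in the steps to 3 h and to 24 h. Weights ran from 0.0916 to 21.4 between arrays, and 8667 of all 10678 probes were called at 5 min, against 562 without weights. With only the 2 groups compared, 1 member was called in the step from 5 min to 3 h and 0 in that to 24 h. Slide as a fixed term left 0 calls in the step to 24 h, and 764 against 3398 calls over all probes at 24 h vs sham. Within 1 slide 5 members were called in the step to 3 h and 0 in that to 24 h. Leaving out 1 array gave 0 to 2 called members at 5 min, 0 to 4 in the step to 3 h and 0 to 4 in that to 24 h. The count at 5 min was 0 without sham replicate 2 or 5 min replicate 3. The count from 5 min to 3 h was 0 without replicate 2 or 3 of 5 min or replicate 1 or 2 of 3 h, and that from 3 h to 24 h was 0 without 3 h replicate 1 or 24 h replicate 2. Where limma called no member, 2 members at 5 min, 6 in the step to 3 h and 3 or 4 in that to 24 h had an unadjusted p under 0.05, as did 3.3% to 21% of all probes. Over all probes the background of calls moved as well. Leaving out 1 array took it from 562 to between 1 (without sham replicate 2 or 5 min replicate 3) and 1419 (without 24 h replicate 1) at 5 min. At 3 h it went from 453 to between 99 (without 3 h replicate 2) and 741 (without 24 h replicate 1), and at 24 h it dropped to 2170 without sham replicate 2. At 5 min it was 873 with cyclic loess, 926 with the processed signal and 2036 within 1 slide, at 3 h it was 951 within 1 slide and 6226 with array weights, and at 24 h it was 1996 with slide as a random block and 7753 with array weights. In the step to 3 h it was 222, with 142 and 143 under the looser filters, 50 with only the 2 groups, 603 within 1 slide, 6490 with array weights and 4 to 711 without 1 array. In the step to 24 h it was 497, with 0 under the fixed slide term, the 2 groups alone or 1 slide, 151 with the random block, 5847 with array weights and 1 to 1081 without 1 array. The causes were not tested. Arrays with the same replicate number deviated together in some pairs and in opposite directions in others (r from -0.52 to 0.46). With the replicate block 2, 4 and 6 members were called against sham, with 3 and 3 in the steps. Tenm4 in sham lay within 1 log2 unit of the detection limit, which limits what its folds can show.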
